A study of Mus musculus with 20 samples.

Results

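The genes considered here were grouped as feedback on the integrated stress response, the pathway that controls ATF4, and each was examined for ATF4 binding at its own locus. They are 9 genes, chosen by name from 21631 that code for protein on chromosomes 1 to 19 and X: the Tribbles pseudokinase genes Trib1, Trib2 and Trib3, the phosphatase subunit genes Ppp1r15a and Ppp1r15b, the eIF2 kinase genes Eif2ak1, Eif2ak2 and Eif2ak4, and the stress-induced gene Nupr1. ATF4 was mapped by CUT&Tag, in which an antibody tethers a transposase that tags the DNA beside the bound protein. The cells were C2C12, an established mouse myoblast line labelled wild type, exposed for 6 h either to DMSO, the solvent, or to 100 nM thapsigargin, which stops calcium uptake into the endoplasmic reticulum (ER) and so causes ER stress. Each treatment had 2 labelled replicates, but 1 peak list stood for each treatment, so no value below has a replicate error and no difference between the treatments could be tested.

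In the integrated stress response, kinases that sense different stresses phosphorylate the translation factor eIF2. General protein synthesis then falls while the ATF4 mRNA is translated more, and the bZIP factor ATF4 turns on stress genes. Other proteins act back on the pathway. The phosphatase subunits GADD34, which is stress-inducible, and CReP, which is constitutive, lead protein phosphatase 1 (PP1) to eIF2 and undo the phosphorylation. Tribbles pseudokinases are adaptor proteins without normal kinase activity, of which TRIB3 binds ATF4 and CHOP and dampens them.

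ATF4 peaks lay at the ends of 6 of the 9 genes in thapsigargin and at 3 of them in DMSO, where a gene counted when a peak centre was within 1 kb of either of its ends. The 3 genes with a peak in DMSO were Trib3, Ppp1r15b and Nupr1, and all of them had one in thapsigargin too. Trib1, Ppp1r15a and Eif2ak4 had one in thapsigargin only, and Trib2, Eif2ak1 and Eif2ak2 in neither. Of all protein-coding genes, 1.29% had such a peak in DMSO, 15.1% in thapsigargin and 1.27% in both. These shares are the background for the counts of 3 and 6. They are taken over all protein-coding genes, whether or not expressed in these cells. A background of expressed genes only was not computed, so the counts do not show an excess particular to this pathway. The 9 genes were picked as a known circuit around ATF4, so their counts are no survey of where ATF4 binds. The thapsigargin list was also longer, with 8619 peaks against 803 in DMSO. The part of read depth and of the calling threshold in this was not tested, so a gene without a DMSO peak is one where none was called.

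The promoters of Trib3, Nupr1 and Ppp1r15a are shown because each held a match to a bZIP motif beneath its peak. Each window runs 5′ to 3′ on the strand of the gene, from 250 bases before the RefSeq start site to 50 from it on, with the start at base 251 (RefSeq, build GRCm38.p6). The capitals mark the matches: TGATGNAA, the core of the C/EBP-ATF response element that ATF4 binds with a C/EBP partner, which reads TTNCATCA on the opposite strand, and TGACGTCA, the cyclic AMP response element (CRE). All 3 windows are on the minus strand: Trib3 at chr2:152344011-152344310, Nupr1 at chr7:126625421-126625720 and Ppp1r15a at chr7:45526219-45526518.
Trib3: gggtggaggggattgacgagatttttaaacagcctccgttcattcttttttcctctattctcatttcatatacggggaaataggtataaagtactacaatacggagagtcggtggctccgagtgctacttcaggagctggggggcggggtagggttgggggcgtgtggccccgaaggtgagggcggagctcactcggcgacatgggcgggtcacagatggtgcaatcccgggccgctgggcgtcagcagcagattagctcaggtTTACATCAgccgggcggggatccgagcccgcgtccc
Nupr1: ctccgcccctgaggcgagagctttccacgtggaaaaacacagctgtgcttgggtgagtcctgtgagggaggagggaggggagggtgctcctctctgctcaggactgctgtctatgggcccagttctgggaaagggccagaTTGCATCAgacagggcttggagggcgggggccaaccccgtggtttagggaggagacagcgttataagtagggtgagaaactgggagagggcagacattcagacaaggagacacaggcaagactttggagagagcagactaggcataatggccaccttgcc
Ppp1r15a: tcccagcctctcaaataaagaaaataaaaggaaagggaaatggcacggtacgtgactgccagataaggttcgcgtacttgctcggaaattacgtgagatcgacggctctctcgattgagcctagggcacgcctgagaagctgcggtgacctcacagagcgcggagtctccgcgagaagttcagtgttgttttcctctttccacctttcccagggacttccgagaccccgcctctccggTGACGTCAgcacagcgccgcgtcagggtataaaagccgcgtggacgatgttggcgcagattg

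The C/EBP-ATF core lay almost under the centre of the DMSO peak at both Trib3 and Nupr1. In Trib3 it occupied bases 265 to 272 of the window, just inside the transcribed region, and its middle was 5 bp from the centre of the DMSO peak and 9.5 bp from that of the thapsigargin peak. In Nupr1 it occupied bases 141 to 148, before the start, 1.5 bp from the DMSO peak centre and 46 bp from the thapsigargin one. For comparison, over the 43 promoter windows that lay wholly in a DMSO peak and held the core, the median distance from core to peak centre was 91.5 bp, and over 103 such windows in thapsigargin it was 117.5 bp. The core was within 50 bp of the centre in 15 of the 43 and in 25 of the 103, so such closeness is not particular to Trib3 and Nupr1. In Ppp1r15a the CRE occupied bases 239 to 246, directly before the start, and was 430 bp from the centre of the peak, whose centre lay inside the gene.

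The motif search covered both strands of the windows of 7 members. Eif2ak4 has 2 windows, which makes 8, and Trib1 and Ppp1r15b were not in the promoter table. Besides TGATGNAA and TGACGTCA, neither of which contains the other, TTGCGCAA (the C/EBP palindrome) and the ER stress response element were searched, and neither was found in a member window. Among 21045 promoter windows of protein-coding genes, 3.45% held TGATGNAA, 2.26% TGACGTCA, 0.223% TTGCGCAA and 0.143% the ER stress element. No window of Trib2, Eif2ak1, Eif2ak2 or Eif2ak4 held any of the 4 motifs, which says only that these letters are not in those windows. Both windows of Eif2ak4 lay wholly inside its thapsigargin peak.

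Among the Tribbles genes, Trib1 and Trib3 had ATF4 peaks at a gene end and Trib2 did not. At Trib3 (chromosome 2, 152337425 to 152344060), the best known ATF4 and CHOP target of the family, the DMSO peak spanned 152343561 to 152344514, with a width of 954 bp and its centre 22.5 bp from the gene's start. The thapsigargin peak spanned 152343245 to 152344859, with a width of 1615 bp and its centre 8 bp from the start. The DMSO peak thus lay wholly inside the thapsigargin peak, which reached 316 bp further into the gene and 345 bp further outward.

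Trib1 encodes an adaptor that brings C/EBPα to the ubiquitin ligase COP1. Its gene (chromosome 15, 59648654 to 59657099) had the widest member peak in thapsigargin, from 59647733 to 59649971, 2239 bp across and centred 198 bp inside the lower-coordinate end. No DMSO peak lay near it, the closest being 1652 kb away. Trib2, which also acts through COP1 (chromosome 12, 15791725 to 15816962), had a single thapsigargin peak in reach, a narrow one of 452 bp centred 9.5 kb beyond its far end. Its nearest DMSO peak was 1104 kb away.

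The phosphatase subunit genes both had thapsigargin peaks, and they differed in DMSO. Ppp1r15b encodes CReP, the constitutive subunit (chromosome 1, 133131166 to 133139800). Its DMSO peak ran from 133130445 to 133131714 and was 1270 bp wide. Its thapsigargin peak ran from 133130434 to 133131865 and was 1432 bp wide, and both covered the lower-coordinate end of the gene. Its edges differed by 11 bp outside the gene and by 151 bp inside. Ppp1r15a encodes GADD34, the stress-inducible subunit (chromosome 7, 45522917 to 45526268). It had a peak in thapsigargin only, from 45525124 to 45526569, 1446 bp wide, of which 79.2% lay inside the gene. The nearest DMSO peak was 155 kb away. This peak also covered the end of Plekha4, a gene of a pleckstrin-homology protein, which lies 62 bp from the start of Ppp1r15a, so the peak cannot be given to either gene by position.

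Of the 3 eIF2 kinase genes among the members, Eif2ak4 had an ATF4 peak at an end and Eif2ak1 and Eif2ak2 did not. It encodes GCN2, the sensor of uncharged tRNA (chromosome 2, 118388583 to 118475234), and its thapsigargin peak spanned 118388162 to 118389182, 1021 bp wide and centred 89 bp inside the start. The nearest DMSO peak was 95.2 kb away. Eif2ak1 encodes the heme-regulated kinase HRI (chromosome 5, 143817792 to 143902717), and its nearest thapsigargin peak was centred 6.93 kb beyond the far end of the gene. That peak, 462 bp wide, was 193 bp from an end of Aimp2, the gene of a scaffold protein of the multi-tRNA synthetase complex. Eif2ak2 encodes PKR, the sensor of double-stranded RNA (chromosome 17, 78850504 to 78882572). Its nearest thapsigargin peak was 15 kb beyond the far end and 60 bp from an end of Gpatch11. In DMSO the nearest peaks were 321 kb from Eif2ak1 and 3599 kb from Eif2ak2.

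Nupr1 encodes a small stress-induced chromatin-associated protein (chromosome 7, 126623246 to 126625470). Its peaks in the treatments were nearly the same interval: 126624771 to 126626379 in DMSO, 1609 bp wide, and 126624782 to 126626463 in thapsigargin, 1682 bp wide. On the side of the gene body the DMSO peak reached 11 bp further, and on the outer side the thapsigargin peak reached 84 bp further. It was the one shared member peak in which the DMSO interval was not contained in the thapsigargin one. More than 40% of each peak lay over the gene, 43.5% in DMSO and 41% in thapsigargin.

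**Figure D1:**
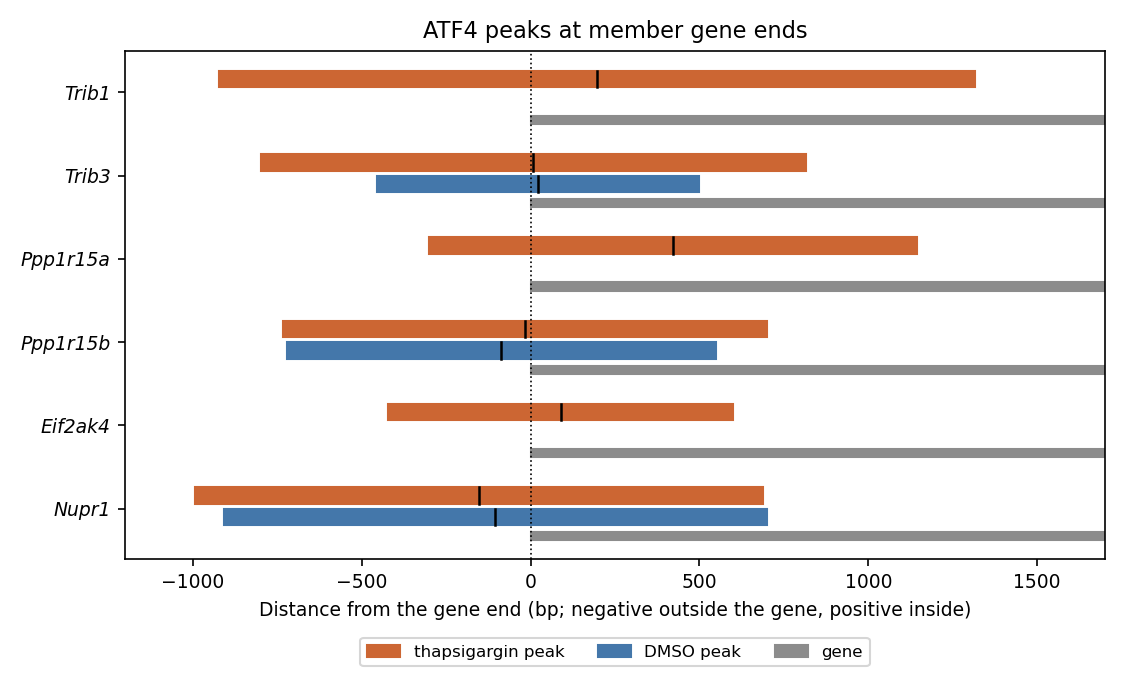
ATF4 peaks at the ends of 6 member genes; the x axis gives the distance in bp from the gene end (negative outside, positive inside the gene), bars are peaks by treatment with the centre as a black tick, and the grey bar is the gene, cut off at the edge of the plot. The DMSO and thapsigargin bars nearly coincide at Nupr1 and Ppp1r15b, the DMSO bar is shorter at Trib3 (954 bp against 1615 bp), and Trib1, Ppp1r15a and Eif2ak4 have no DMSO bar.

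Where both treatments had a peak, the change in width differed between the genes. The thapsigargin peak was 1.69 times as wide as the DMSO peak at Trib3, 1.13 times at Ppp1r15b and 1.05 times at Nupr1. Over all 799 DMSO peaks that overlapped a thapsigargin peak the median ratio was 1.56, and the ratios of the 3 genes stood at percentiles 59.0, 9.32 and 3.94 of those pairs. The width ratios of Nupr1 and Ppp1r15b were thus lower than those of most pairs, while Trib3 was near the middle. The ratio is divided by the DMSO width, and a peak already wide in DMSO tends to a low ratio. Among all DMSO peaks the width stood at percentile 97.0 for Nupr1, 87.0 for Ppp1r15b and 62.8 for Trib3. Pairs of like DMSO width were not compared, so the low ratios are no trait of these genes. The peak centres were 14.5 bp apart at Trib3, 47.5 bp at Nupr1 and 70 bp at Ppp1r15b, against a median of 97 bp. Width is not a measure of occupancy, and its dependence on read depth was not tested.

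Most member peaks were wide for their list. Among the 2739 thapsigargin peaks centred within 1 kb of a gene end, with a median width of 1027 bp, the peak at Trib1 stood at percentile 99.1, Nupr1 at 92.8, Trib3 at 90.7, Ppp1r15a at 83.3, Ppp1r15b at 82.6 and Eif2ak4 at 49.3. Eif2ak4 was therefore the one member whose thapsigargin peak at a gene end was of ordinary width. Among the 235 such DMSO peaks, with a median of 888 bp, Nupr1 stood at percentile 96.4, Ppp1r15b at 83.6 and Trib3 at 59.8. The order differed between the lists: Trib3 had the narrowest of the 3 shared peaks in DMSO but a wider one than Ppp1r15b in thapsigargin.

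**Figure D2:**
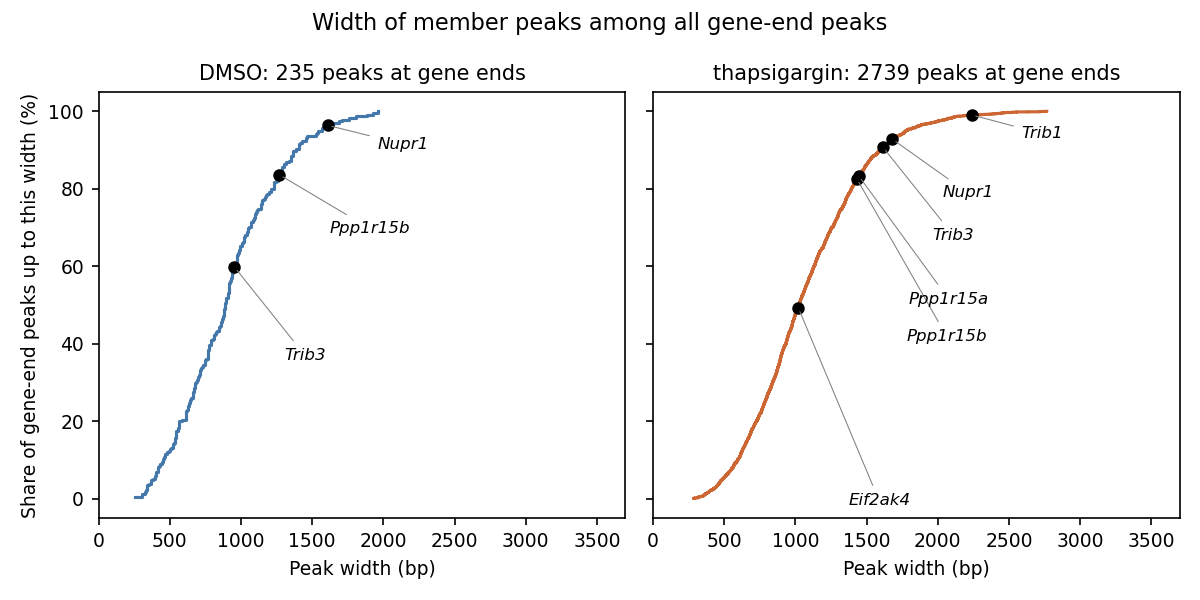
Width of member peaks (black points) on the cumulative distribution of widths of all gene-end peaks, for DMSO (left) and thapsigargin (right); the x axis is the width in bp and the y axis the share of peaks up to that width in percent. Trib1 is near the top of the thapsigargin distribution at 2239 bp, and Eif2ak4 sits near its middle at 1021 bp.

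All peaks at members whose strand was known lay at the start of the gene, not at the far end. Strand came from the promoter table, which held 7 members, and the peaks of Trib3, Ppp1r15a, Eif2ak4 and Nupr1 were at the start. Of 2615 genes longer than 2 kb with a known strand and a thapsigargin peak at an end, 96% had one at the start, so the members did as most bound genes do. For Trib1 and Ppp1r15b the strand was not taken from these tables, and the peaks are given by coordinate.

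No member had a peak centred in its body more than 1 kb from an end, in either treatment. The share of all genes with such a peak was not computed, so this is no trait of the members. In short genes such as Nupr1 (2225 bp) and Ppp1r15a (3352 bp), little of the body lies that far from an end. Within 50 kb of the 9 genes lay 16 thapsigargin peaks, of which 6 were those at the gene ends and 10 were in the flanks, and 3 DMSO peaks, all of them at gene ends. The median number of thapsigargin peaks per gene was 1 for the members and also 1 for all protein-coding genes. Every member had at least 1 thapsigargin peak within this reach, as did 51.1% of all protein-coding genes, and 3 members had a DMSO peak, against 8.01%. None of the 10 flanking peaks overlapped a DMSO peak, which is near the general share, since 9.25% of all thapsigargin peaks did. Their widths ran from 452 to 1772 bp. Of these 10, 4 had their centre no more than 1 kb from the end of a protein-coding neighbour: Rbck1, which encodes a ubiquitin ligase subunit, beside Trib3, Nucb1 beside Ppp1r15a, Aimp2 beside Eif2ak1 and Gpatch11 beside Eif2ak2. Of all thapsigargin peaks, those far from genes included, 31.8% were centred within 1 kb of a gene end. The 10 flanking peaks leave out any at the member's own end and all lie within 50 kb of a gene. The count of 4 and that share are thus not on the same basis, and the count is no result about the members.

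Within 50 kb Trib3 had the most peaks of the members, with 4 in thapsigargin, a number reached by 3.26% of all protein-coding genes. Within 100 kb Trib1 had more, with 6 against 4 for Trib3. Besides the peak at the start of Trib3, one of 1772 bp (152349142 to 152350913) was centred 5.97 kb upstream of the start and was wider than the one at the start. Another of 1326 bp was 16.4 kb upstream, and one of 689 bp lay 5.13 kb beyond the far end, at Rbck1. Ppp1r15a had 3 peaks in reach, at its start, at Nucb1 and 35.7 kb upstream. Nupr1 had a second peak of 694 bp 24.2 kb from its start, nearest to Sgf29, and Trib1 one of 1558 bp at 49.3 kb, nearest to Nsmce2. Ppp1r15b and Eif2ak4 had only the peak at the gene end. Which gene a flanking peak acts on cannot be read from position.

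**Figure D3:**
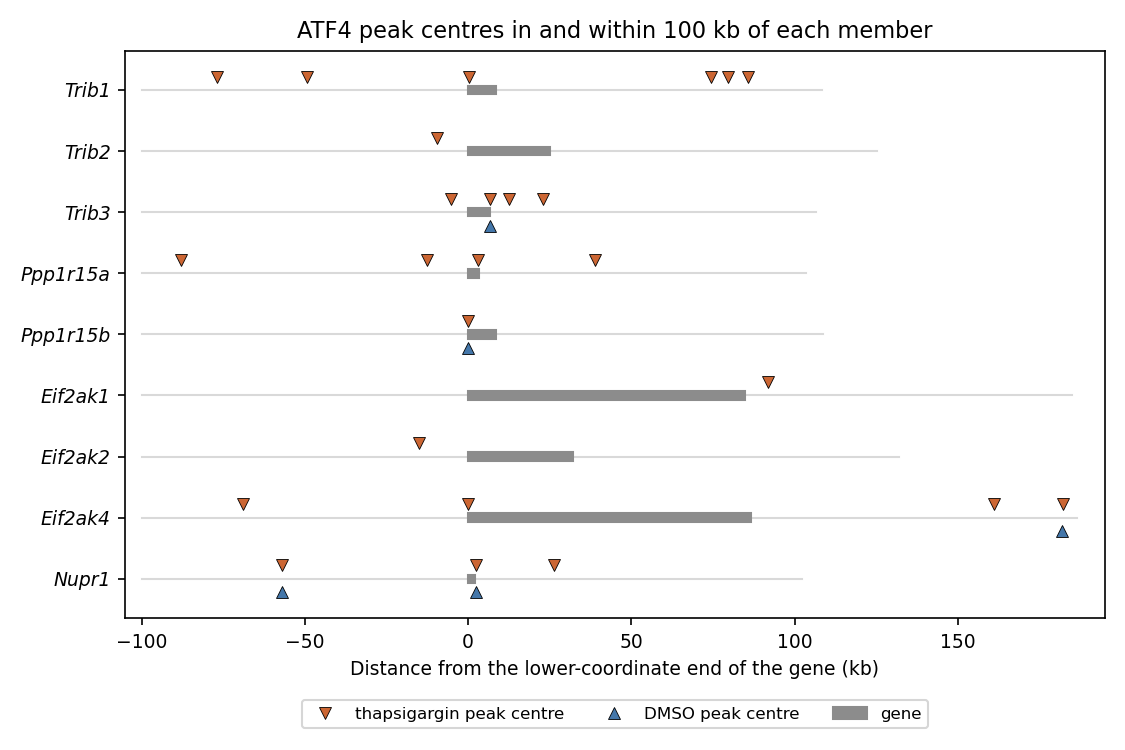
ATF4 peak centres in and within 100 kb of each member; the x axis is the distance in kb from the lower-coordinate end of the gene, triangles pointing down are thapsigargin peaks, triangles pointing up are DMSO peaks, and grey bars are the genes. Trib3 has 4 thapsigargin peaks within 25 kb, whereas Trib2, Eif2ak1 and Eif2ak2 each have 1 in the whole map, outside the gene.

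The distances fell into separate ranges around the limit of 1 kb. In thapsigargin the furthest peak inside the limit was at 421.5 bp, at Ppp1r15a, and the nearest outside it at 6.93 kb, at Eif2ak1. In DMSO these values were 105 bp, at Nupr1, and 95.2 kb, at Eif2ak4. The median distance from a gene end to the nearest peak was 198 bp over the members in thapsigargin, against 49.7 kb over all protein-coding genes, and 155 kb in DMSO against 844 kb.

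The other genes of the pathway were read from 5 lists of 30 genes in all, drawn up by function. Of these, 15 had a thapsigargin peak at an end and 3 had a DMSO peak. The lists are short and follow the same textbook pathway, so the counts are set beside the 15.1% and 1.29% of all genes as a description.

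Of the 8 subunits of eIF2, the target of the kinases, and of eIF2B, the exchange factor that phosphorylated eIF2 blocks, 5 had a thapsigargin peak. In order of width these were Eif2s2 (1436 bp), Eif2b4 (1351 bp), Eif2s3x (1252 bp), Eif2s1 (1011 bp), which encodes the phosphorylated subunit, and Eif2b5 (788 bp). Eif2s2 was the only one of the list with a DMSO peak, 1162 bp wide. Eif2b1, Eif2b2 and Eif2b3, named as the rest of the list, had none at an end.

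A list of 10 genes held Eif2ak3, the fourth eIF2 kinase gene, and 9 genes whose products activate, restrain or bind the kinases. In thapsigargin 4 of the 10 had a peak, or 3 of the 9 without Eif2ak3, and in DMSO none had. They were Nck1 (1206 bp), an adaptor that can lower eIF2 phosphorylation, Eif2ak3 (1138 bp), which encodes PERK, the kinase of the ER membrane, Hsp90aa1 (1046 bp), a chaperone of HRI, and Dele1 (857 bp), which relays mitochondrial stress to HRI. The rest of the list, Dnajc3, Gcn1, Impact, Oma1, Prkra and Tarbp2, had none at an end. With Eif2ak3 added to the members, 2 of the 4 eIF2 kinase genes, those of GCN2 and PERK, had a peak in thapsigargin, and none in DMSO. The peak of Eif2ak3 was centred 169 bp from a gene end and that of Eif2ak4 89 bp.

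Of the 3 PP1 catalytic subunit genes, whose products the phosphatase subunits direct to eIF2, Ppp1ca (978 bp) and Ppp1cb (550 bp) had a peak in thapsigargin and none in DMSO. Both were narrower than the peaks of Ppp1r15a and Ppp1r15b. Of 8 relatives, partners and substrates of the Tribbles proteins, 4 had a thapsigargin peak: Map2k7 (1485 bp), a kinase of the JNK pathway, Stk40 (1459 bp), a Tribbles-related pseudokinase, Cebpb (1355 bp) and Cop1 (562 bp), the ubiquitin ligase that Trib1 and Trib2 recruit. Stk40 and Cebpb also had DMSO peaks, of 1278 bp and 767 bp. Cebpa, whose product is the best known substrate of Trib1 and Trib2, had its nearest thapsigargin peak at 63 kb. Akt1, Akt2 and Map2k1, the rest of that list, also had none at an end. The Nupr1 paralogue Nupr1l had none at an end either, with the nearest 21.2 kb away.

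**Figure D4:**
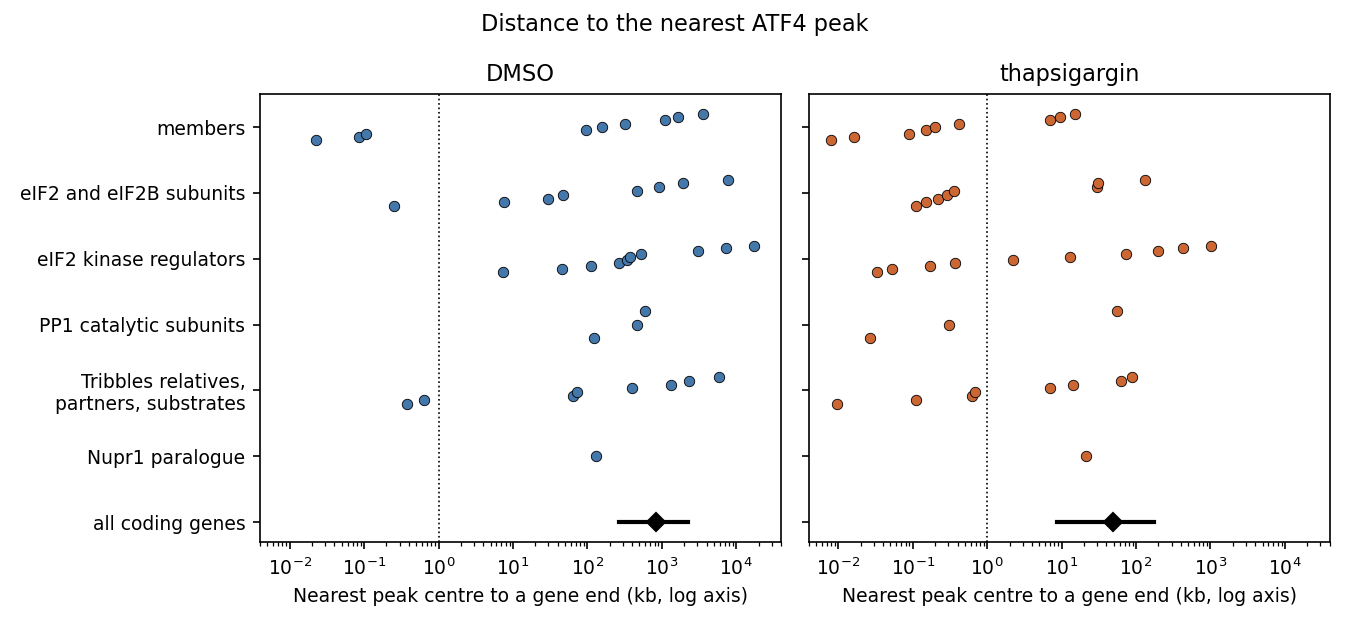
Distance from a gene end to the nearest ATF4 peak centre in kb on a log axis, for DMSO (left) and thapsigargin (right); each point is a gene, rows are the members and the related lists, the dotted line is the limit of 1 kb, and the black diamond and bar are the median and the middle 50% of all protein-coding genes. In thapsigargin 6 members lie left of the line, and in DMSO 3 do.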

How the data were processed

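Only the ATF4 peak lists of the DMSO and thapsigargin groups were used, and 8 other groups were not analysed here. The deposited lists give chromosome, start and end of each peak, with no height, score or p-value. Per the submitters' processing notes the tools were Trim Galore 0.6.10, MACS2 2.2.7.1 and Bowtie2, on mm10, with no parameters. Threshold, control library and the handling of replicates were not given in the sources used here, so depth is unknown. Gene positions came from a RefSeq table of GRCm38.p6, to which mm10 corresponds, and promoter sequences from RefSeq. The peak centre was set against gene ends, overlap meant at least 1 bp, and printed coordinates count from 1. Exons and introns were not told apart. Percentiles count ties as midranks. The functions were tested on simulated data. The members, related lists and motifs were chosen with earlier results of these data known, so no test was run over them. All members were named, with every related gene that had a peak, up to 6 a list. Intervals are 95% Wilson intervals. Computation was in Python 3.11.15 (scipy 1.17.1, pandas 2.3.3, numpy 2.4.6, matplotlib 3.10.9). Peak positions do not measure expression, so the cell type label was not checked.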

Additional observations from a re-analysis of the deposited data

How the results depend on the processing

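The alternatives were other distances (500 bp, 3 kb, 5 kb), any base of a peak over the gene end, peaks at or above the list's median width, other overlap rules, merging of peaks within 500 bp and other reaches. The counts of 3 members in DMSO and 6 in thapsigargin were the same under the distance, any-base and width settings, except that 5 members had a thapsigargin peak of at least median width, Eif2ak4 having none. Over these settings the share of all genes ran from 0.74% to 2.03% in DMSO and from 7.56% to 21.1% in thapsigargin. The 3 shared peaks were the same under the other overlap rules and merging. With a reach of 100 kb there were 25 thapsigargin and 5 DMSO peaks near members, in place of 16 and 3. The related lists were varied after the data had been seen. The Tribbles list went from 2 to 1 in DMSO with 500 bp, with a base over the end and with wide peaks (1 each), and from 4 to 2 in thapsigargin with 500 bp. In DMSO, Stk40 dropped out with 500 bp and with a base over the end, and Cebpb with wide peaks. With wide peaks, thapsigargin counts were 3 for eIF2 and eIF2B subunits and 0 for PP1 catalytic subunits. For the kinase regulators and for the Tribbles list they were 3. With 3 kb and with 5 kb the regulators rose from 4 to 5. No paired analysis was possible because each treatment has 1 list, which also prevents leaving out a replicate. The lists give no depth, so how far it limits the DMSO calls was not tested.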

Other observations

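Among promoter windows that lay wholly in a peak, the C/EBP-ATF core found at Trib3 and Nupr1 was held by 43 of 131 in DMSO (32.8%, Wilson interval 25.4% to 41.3%) and by 103 of 2223 in thapsigargin (4.63%, interval 3.84% to 5.59%), against 3.45% of all windows. The CRE found at Ppp1r15a was held by 2 of 131 in DMSO (1.53%, interval 0.42% to 5.4%) and by 117 of 2223 in thapsigargin (5.26%, interval 4.41% to 6.27%), against 2.26% of all. The difference was not tested, since the lists share most DMSO sites and windows of a gene with several starts can overlap. The 131 windows came from 122 genes and the 2223 from 1991. The intervals treat windows as independent and make no allowance for this. The sets also differ in base composition, with a median GC content of 63.0% in windows wholly in a thapsigargin peak and 56.7% in all windows. The part of base composition in the motif shares was not tested.

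Beyond 50 kb, 3 thapsigargin peaks of 936, 1076 and 1254 bp lay 66, 71.3 and 77.3 kb past the upper-coordinate end of Trib1, each without a DMSO overlap, like 90.8% of all thapsigargin peaks, and Trib1 was the protein-coding gene with the nearest end. Near Eif2ak4, a peak of 2784 bp in thapsigargin and 1672 bp in DMSO lay 95 kb past the far end, and the nearest end of a protein-coding gene was that of Bmf, a BCL2 family gene, 21 kb away.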
